A study of Mus musculus with 8 samples.

Results

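SR proteins and hnRNP proteins are families of RNA-binding proteins that help set which exons a cell keeps in its messenger RNAs. Their genes were taken as every gene in the count table whose symbol begins with Srsf or Hnrnp, which gave 31 of 24469 genes: 11 Srsf genes and 20 Hnrnp genes. RNA was sequenced from hand-picked pancreatic islets, which hold the endocrine cells of the pancreas, of 4 knockout and 4 wild-type mice, all 8 weeks old. The knockout mice lacked function of the U32a, U33, U34 and U35a snoRNAs, whose host is the ribosomal protein gene Rpl13a, and were on the C57BL/6 background. The wild-type mice were C57BL/6. The labels name no treatment, sex or breeding scheme, and they give 1 run and 1 lane for all 8 libraries. The protocol counts 4 mice for each genotype, so each library is 1 replicate. The comparison asked how the level of each splicing factor transcript differs between islets without and islets with these snoRNAs.

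SR proteins carry RNA recognition motifs and a tail rich in arginine and serine that kinases phosphorylate, and most of them promote the use of an exon when they bind inside it. Proteins of the hnRNP families coat nascent transcripts through RNA recognition, KH or RGG domains, and many of them hold exons back, shape polyadenylation or move with messenger RNA to the cytoplasm. In beta cells the balance of such factors is known to shape the isoforms of ion channel and secretory genes. Many genes of both families tune their own level by splicing in an exon that marks the transcript for decay, so a count per gene, which sums all isoforms, does not tell productive from unproductive transcripts.

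The targeted snoRNAs together had 0 counts in the knockout libraries and 15 in the wild-type libraries. Snord32a was at 0 in every knockout library and at 5, 1, 1 and 2 counts in wild-type replicates 1 to 4. Snord34 and Snord35a were at 0 in all 8 libraries, so they check nothing here. The host gene Rpl13a had 1709 to 3043 counts in knockout and 2725 to 4273 in wild type. Assigned counts ran from 21235196 to 41148318 per library, of which the ribosomal RNA precursor Rn45s took 36.7 to 41.3%. Wild-type replicate 1 was the deepest library. Genes of pancreatic acinar cells, the enzyme-secreting cells around the islets, took 22.0, 5.34, 28.0 and 17.7% of the counts in knockout replicates 1 to 4 and 26.4, 2.05, 14.4 and 4.97% in wild-type replicates 1 to 4. The 17 islet endocrine markers, none at 0, took 9.32, 17.2, 9.83 and 12.7% in knockout replicates 1 to 4 and 10.5, 24.9, 18.8 and 21.9% in wild-type replicates 1 to 4, so wild-type replicate 1 lay with the knockouts. Estimates were below 0 for 13 of these 17 genes, 7 of them at an unadjusted edgeR p under 0.05, beside 10.3% of all genes tested. They were above 0 for 32 of 33 acinar genes, beside 51.3% of all genes tested, and none of the 33 reached that p. Xist, which is transcribed from the inactive X chromosome of females, was above 1000 counts in knockout replicates 1 and 4 and in wild-type replicate 4, and at 158 or less in the other 5. The labels give no sex. Markers of duct, endothelial, stellate, leukocyte, Schwann and red blood cells took at most 0.0504% of counts in knockout and 0.0457% in wild type, list by list. Fewer cells of a type and less RNA per cell cannot be told apart in these whole-islet libraries.

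All 31 splicing factor genes were expressed, and all passed the filter on low counts. Levels are given as CPM, counts per 1000000 after TMM scaling, and between genes as CPM per kilobase of mRNA. Over the 8 libraries the highest levels per length were those of Hnrnpk at 38.9, Hnrnpl at 33.1, Hnrnph1 at 31.3 and Hnrnpa3 at 31.0 CPM per kilobase. Hnrnpk binds C-rich RNA through KH domains, Hnrnpl binds CA repeats, and Hnrnph1 binds runs of G. The most abundant SR genes per length were Srsf2 at 30.4, Srsf11 at 24.5 and Srsf7 at 24.3 CPM per kilobase. Some places rest on the length chosen, among them those of Hnrnpa3, Srsf7 and Hnrnpd. With the median length of annotated mRNAs Hnrnpa3 ranked 4 and Srsf7 8 of the 31, and with all exons merged they ranked 16 and 18, where Srsf5 at 17.2 CPM per kilobase stood above Srsf7 at 9.20. Hnrnpd ranked 17 with the median length and 28 with all exons merged. Hnrnph3 then ranked 27, so it was among the 4 lowest only with the median length.

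Hnrnpk was at 103, 114, 113 and 109 CPM in knockout replicates 1 to 4 and at 109, 91.7, 98.7 and 98.6 CPM in wild-type replicates 1 to 4. The lowest Hnrnpk values were those of wild-type replicates 2 to 4, and replicate 1 lay inside the knockout range. Hnrnpl was at 71.0, 69.4, 72.2 and 70.3 CPM in knockout replicates 1 to 4 and at 73.1, 72.9, 68.4 and 69.2 CPM in wild-type replicates 1 to 4. The Hnrnpl values interleave, and its log2 fold change of -0.0030 ± 0.08 (SE) was the closest to 0 among the 31 genes. Hnrnpa3, of the A/B family that binds UAG-containing RNA, was at 52.7, 49.95, 55.9 and 57.6 CPM in knockout replicates 1 to 4 and at 51.5, 47.2, 49.1 and 46.1 CPM in wild-type replicates 1 to 4. Of the 4 knockout libraries, 3 lay above every wild-type library for Hnrnpa3, and the groups overlapped.

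The lowest level was that of Srsf12, which encodes an SR-related protein that counters other SR proteins in human cells: 0.219 CPM per kilobase, or 11 to 24 counts per library. Srsf12 was at 0.647, 0.783, 0.707 and 0.643 CPM in knockout replicates 1 to 4 and at 0.620, 0.572, 0.588 and 0.588 CPM in wild-type replicates 1 to 4. Its groups did not overlap, yet the estimate of 0.23 ± 0.26 (SE, log2) had an edgeR adjusted p of 0.635, with a standard error larger than the estimate itself. Hnrnpll, a paralog of Hnrnpl known from T cells, was at 5.82, 4.89, 4.33 and 4.79 CPM in knockout replicates 1 to 4 and at 4.99, 5.06, 4.49 and 4.62 CPM in wild-type replicates 1 to 4. Both the highest and the lowest Hnrnpll values were in knockout libraries. Hnrnpr was at 29.4, 25.5, 27.2 and 30.0 CPM in knockout replicates 1 to 4 and at 25.7, 28.1, 23.4 and 23.1 CPM in wild-type replicates 1 to 4. It stood low per length, at 2.21 CPM per kilobase, because its annotated mRNAs have a median length of 11997.5 bases. Hnrnph3 was at 5.53, 8.54, 9.72 and 9.96 CPM in knockout replicates 1 to 4 and at 8.58, 8.94, 6.84 and 10.6 CPM in wild-type replicates 1 to 4, and its groups overlapped.

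**Figure D1:**
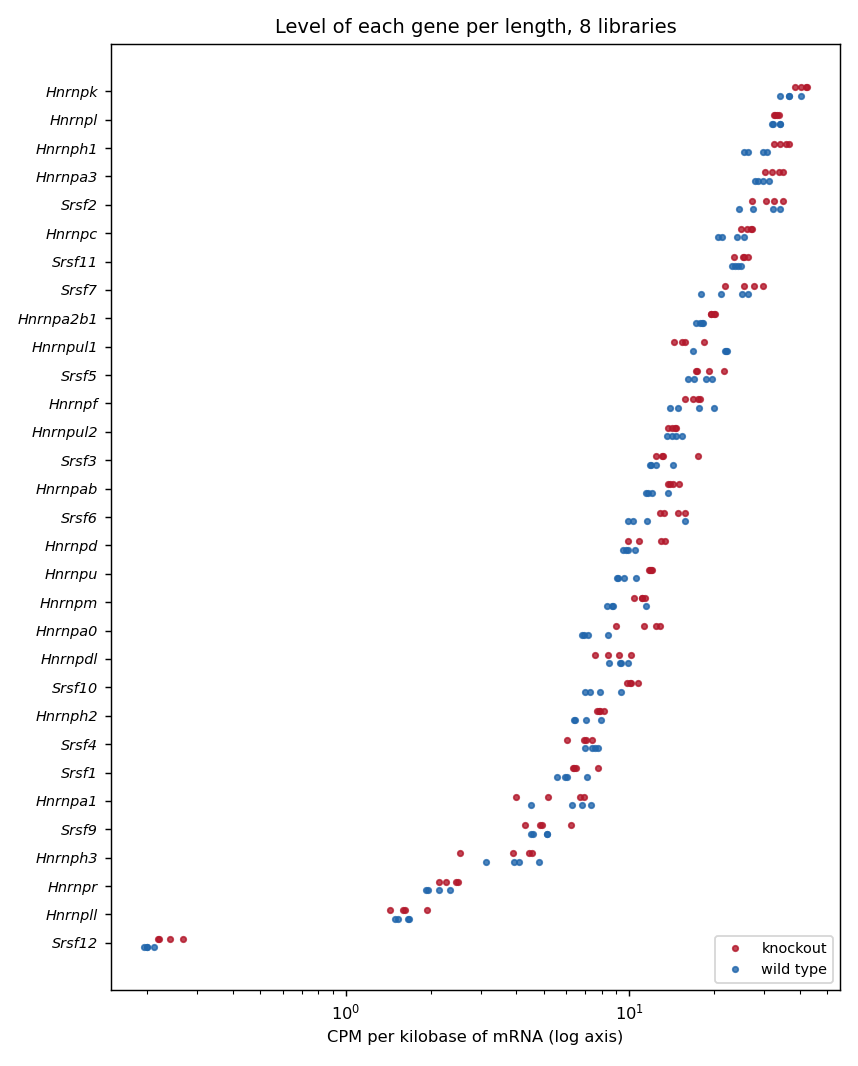
Level of each of the 31 genes in CPM per kilobase of mRNA on a log axis, with a point for each of the 4 knockout and 4 wild-type libraries and genes ordered by their mean over all 8. The genes run from Srsf12 at 0.219 to Hnrnpk at 38.9 CPM per kilobase, and for most genes the points of the genotypes lie close together on this axis.

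None of the 31 genes passed FDR 0.05 between knockout and wild type in edgeR's quasi-likelihood test, where 2 of 13617 genes, or 0.0147%, did. Estimates leaned toward higher levels in the knockout: 24 of the 31 log2 fold changes were above 0 and 7 below, with a median of 0.14, against a median of 0.0098 and 51.3% above 0 over all genes tested, although the median of the 31 was -0.00072 in limma on log2 of the deposited RPM plus 1. That scale moved the median of all genes to -0.088, and edgeR with no composition factor moved it to -0.11 with the 31 genes at a median of 0.038, so the 31 genes stood above all genes by 0.09 to 0.15 on the 3 scales. With a trend of fold change with transcript GC content removed, described further on, that gap was 0.017. The lean was present in both families, with 10 of 11 Srsf genes (median 0.13) and 14 of 20 Hnrnp genes (median 0.15) above 0, against 4 and 10 in limma on that scale. At an unadjusted p under 0.05 there were 7 of the 31, 6 higher and 1 lower, beside 18.7% of all genes, of which 8.42% were higher and 10.3% lower. The knockout and wild-type libraries did not overlap for 6 of the 31, beside 8.34% of all genes, and in all 6 the knockout was higher, which 3.68% of all genes showed, while 4.66% of all genes showed the opposite. These 6 were Hnrnpa0, Hnrnpu, Srsf10, Hnrnph1, Hnrnpa2b1 and Srsf12. Of the 31 genes, 18 had transcripts under 45% GC. Among all 2973 tested genes under that limit, 553 were higher and 29 lower at an unadjusted edgeR p under 0.05. The groups of those 2973 did not overlap for 248 genes with the knockout higher and for 18 with it lower.

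The largest estimate belonged to Hnrnpa0, an A/B-family protein that in human cells binds AU-rich elements in the messenger RNAs of inflammatory genes. Hnrnpa0 was at 24.1, 33.3, 30.3 and 34.4 CPM in knockout replicates 1 to 4 and at 22.5, 18.6, 18.2 and 19.1 CPM in wild-type replicates 1 to 4. The groups did not overlap, although knockout replicate 1 was close to wild-type replicate 1. Its log2 fold change was 0.64 ± 0.12 (SE), a 1.56-fold difference, with an edgeR adjusted p of 0.116. Leaving out any 1 library moved the estimate between 0.58 and 0.73. The largest estimate in the other direction belonged to Hnrnpul1, a relative of Hnrnpu with roles in transcription and in DNA repair in human cells. Hnrnpul1 was at 46.1, 39.6, 38.7 and 36.3 CPM in knockout replicates 1 to 4 and at 42.3, 54.9, 55.4 and 55.6 CPM in wild-type replicates 1 to 4. Of the 4 knockout libraries 3 lay below every wild-type library, and wild-type replicate 1 lay among the knockouts. It had an estimate of -0.37 ± 0.11 (log2, SE, adjusted p in edgeR = 0.163).

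The 250 bases upstream of the annotated starts of these genes are shown because they had the largest differences in either direction, with CCAAT boxes (CCAAT, either strand) and GC boxes (GGGCGG, either strand) in capitals. The sequences are from RefSeq on GRCm38.p6, 5′ to 3′ on the strand of the gene, at chr13:58128557-58128806 (minus strand) for Hnrnpa0 and chr7:25754760-25755009 (minus strand) for Hnrnpul1.
Hnrnpa0: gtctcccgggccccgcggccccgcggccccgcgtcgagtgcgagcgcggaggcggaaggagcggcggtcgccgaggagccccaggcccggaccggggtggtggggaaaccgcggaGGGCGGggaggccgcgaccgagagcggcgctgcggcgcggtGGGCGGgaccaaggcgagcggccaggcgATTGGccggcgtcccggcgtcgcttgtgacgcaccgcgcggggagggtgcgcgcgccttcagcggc
Hnrnpul1: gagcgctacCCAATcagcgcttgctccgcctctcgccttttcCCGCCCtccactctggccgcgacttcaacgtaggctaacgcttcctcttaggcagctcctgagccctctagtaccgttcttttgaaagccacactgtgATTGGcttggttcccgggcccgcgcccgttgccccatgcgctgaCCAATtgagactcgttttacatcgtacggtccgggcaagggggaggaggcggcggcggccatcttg
The Hnrnpa0 stretch was 81.2% G and C with 46 CpG dinucleotides, and the Hnrnpul1 stretch 61.6% with 22. Of the 31 genes 29 were matched to a promoter, 41 promoters in all, with a median GC of 68.0% against 59.6% over 13310 promoters of the genes tested. The GC box stood in 80.5% of them against 56.4% of all, and the CCAAT box in 48.8% against 34.7%. The TATA box (TATAAA) stood in 7.32% against 6.57%. Other motifs searched were the ETS core (CCGGAAG), in 21.95% against 12.49%, and the NRF1-like core (TGCGCA), in 21.95% against 10.86%. The E-box (CACGTG) stood in 7.32% against 8.14%, and the CRE (TGACGTCA) in 0% against 2.64%. Genes with more than 1 promoter count more than once in these shares. Such matches describe letters in a window and do not show that a factor binds there.

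Hnrnpu, the scaffold attachment protein that binds both chromatin and nascent RNA, was at 89.5, 90.6, 91.2 and 91.8 CPM in knockout replicates 1 to 4 and at 80.7, 73.3, 69.0 and 69.8 CPM in wild-type replicates 1 to 4. The 4 knockout values were the tightest of any of these genes, with a coefficient of variation of 1.07%, and all lay above the wild-type values. It had an estimate of 0.31 ± 0.09 (log2, SE, adjusted p in edgeR = 0.149). Srsf10 encodes an SR protein that represses splicing when it is dephosphorylated, as in mitosis and after heat shock. It was at 30.1, 30.9, 32.9 and 30.7 CPM in knockout replicates 1 to 4 and at 28.6, 21.4, 24.1 and 22.3 CPM in wild-type replicates 1 to 4. The groups did not overlap, and wild-type replicate 1 was the nearest to the knockouts, at an estimate over all libraries of 0.37 ± 0.10 (log2, SE, adjusted p in edgeR = 0.150). Hnrnph1 was at 73.8, 70.7, 77.7 and 79.6 CPM in knockout replicates 1 to 4 and at 66.4, 64.4, 57.3 and 55.6 CPM in wild-type replicates 1 to 4. Its groups did not overlap either, with an estimate of 0.31 ± 0.09 (log2, SE, adjusted p in edgeR = 0.157). The counts of Hnrnph1 were not whole in any of the 8 libraries, as happens where reads are shared between genes or copies, and its level is uncertain.

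Among the A/B and related families, Hnrnpa2b1, which binds and sorts messenger RNAs and microRNAs, was at 32.2, 33.4, 32.9 and 32.2 CPM in knockout replicates 1 to 4 and at 29.5, 30.3, 28.6 and 30.0 CPM in wild-type replicates 1 to 4. The groups did not overlap, at an estimate of 0.14 ± 0.08 (log2, SE, adjusted p in edgeR = 0.326). Hnrnpab, a paralog of Hnrnpd that binds single-stranded DNA and RNA, was at 28.7, 26.6, 26.1 and 27.2 CPM in knockout replicates 1 to 4 and at 26.1, 22.1, 23.0 and 21.9 CPM in wild-type replicates 1 to 4. For Hnrnpab only wild-type replicate 1 reached the knockout range (0.22 ± 0.09 log2, SE, edgeR adjusted p = 0.234). Hnrnpd, the AUF1 protein that directs decay of AU-rich messenger RNAs, was at 24.5, 18.3, 19.97 and 23.7 CPM in knockout replicates 1 to 4 and at 17.9, 19.3, 18.3 and 17.5 CPM in wild-type replicates 1 to 4. Knockout replicate 2 lay inside the wild-type range, and the estimate was 0.24 ± 0.11 (log2, SE, edgeR adjusted p = 0.262). Its paralog Hnrnpdl averaged 24.3 ± 3.08 CPM in knockout and 25.5 ± 1.56 CPM in wild type (SD, n = 4 each). Within a library, where scaling cancels, the log2 ratio of Hnrnpd to Hnrnpdl was -0.17 ± 0.05 in knockout and -0.48 ± 0.08 in wild type (SD, n = 4 each), a difference larger than either SD. In all, 6 paralog pairs were looked at after the values were seen, and none was tested. With the GC trend described further on removed, the log2 fold changes were 0.07 for Hnrnpd and -0.15 for Hnrnpdl. The ratio of Hnrnpa0 to Hnrnpa3 was -0.84 ± 0.23 in knockout and -1.31 ± 0.10 in wild type. That of Hnrnpul1 to Hnrnpul2 was -0.87 ± 0.16 and -0.51 ± 0.26, and that of Srsf10 to Srsf12 5.49 ± 0.12 and 5.34 ± 0.14, in the same order. The ratio of Hnrnpl to Hnrnpll was 3.84 ± 0.19 in knockout and 3.89 ± 0.04 in wild type, and that of Hnrnph1 to Hnrnph2 1.99 ± 0.06 in knockout and 1.87 ± 0.15 in wild type.

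Hnrnpc, which binds U tracts of nascent transcripts and competes there with the splicing factor U2AF, was at 53.5, 56.3, 57.8 and 58.5 CPM in knockout replicates 1 to 4 and at 54.7, 45.8, 44.2 and 51.7 CPM in wild-type replicates 1 to 4. Wild-type replicate 1 lay inside the knockout range, and the estimate was 0.20 ± 0.09 (log2, SE, edgeR adjusted p = 0.268). Hnrnpm, which binds GU-rich RNA, was at 32.8, 36.0, 34.9 and 34.9 CPM in knockout replicates 1 to 4 and at 36.1, 27.7, 27.5 and 26.4 CPM in wild-type replicates 1 to 4. Its highest value of all was that of wild-type replicate 1, while the other 3 wild-type libraries lay below every knockout (0.24 ± 0.11 log2, SE, edgeR adjusted p = 0.274).

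**Figure D2:**
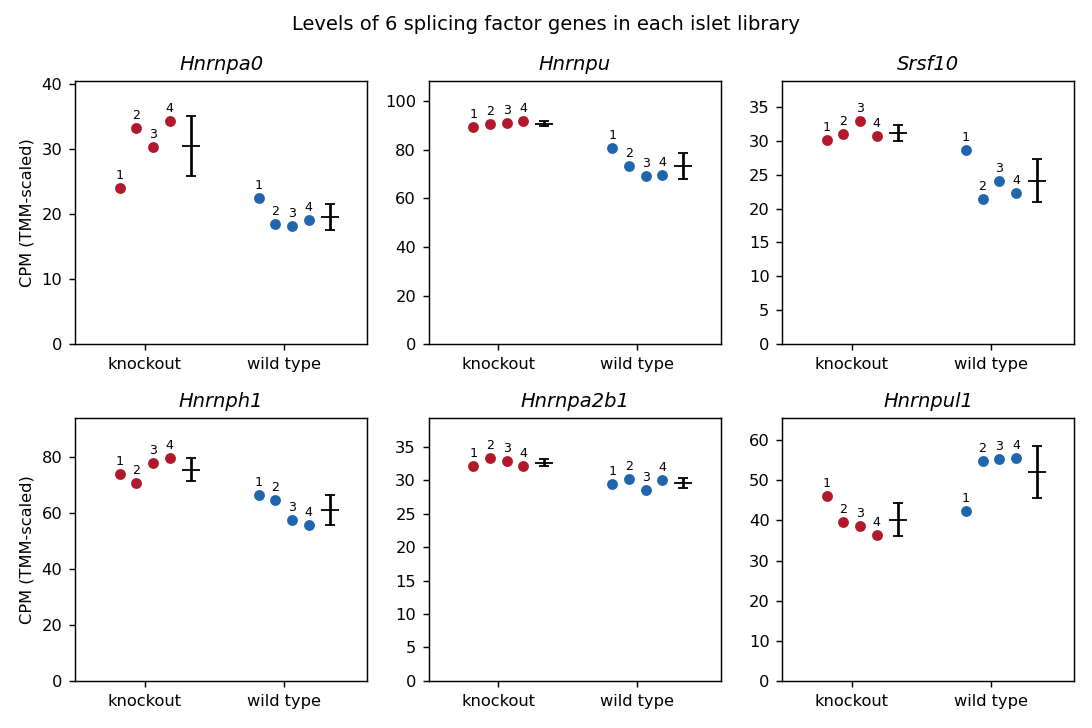
CPM after TMM scaling of 6 genes in each library, knockout left and wild type right, with the replicate number above each point and the mean ± SD (n = 4) beside the points. Groups do not overlap, with the knockout higher, for Hnrnpa0, Hnrnpu, Srsf10, Hnrnph1 and Hnrnpa2b1, while for Hnrnpul1 wild-type replicate 1 at 42.3 CPM lies among the knockouts.

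The remaining SR genes had edgeR adjusted p-values between 0.342 and 0.804. Srsf6 averaged 50.1 ± 4.72 CPM in knockout and 42.0 ± 9.43 CPM in wild type (SD, n = 4 each), with 55.6 CPM in wild-type replicate 1 and 35.0 to 40.8 CPM in the other 3. Srsf7, which also serves as an adaptor for export of messenger RNA, averaged 27.2 ± 3.53 CPM in knockout and 23.4 ± 3.95 CPM in wild type. Srsf3, the smallest SR protein and another export adaptor, averaged 36.8 ± 6.19 CPM in knockout and 33.1 ± 3.02 CPM in wild type. For Srsf3 and for Srsf1, the founding SR protein, knockout replicate 4 alone lay above every wild-type library. Srsf1 averaged 28.1 ± 2.84 CPM in knockout and 25.6 ± 2.73 CPM in wild type. Srsf2, known for marking nuclear speckles, averaged 59.3 ± 6.17 CPM in knockout and 56.0 ± 8.37 CPM in wild type. Srsf5, Srsf9 and Srsf11 had estimates of 0.08 ± 0.11, 0.07 ± 0.14 and 0.07 ± 0.08 (log2, SE). Srsf4 was the one SR gene with an estimate below 0, at -0.12 ± 0.10 (SE), with 15.4 ± 1.30 CPM in knockout and 16.8 ± 0.716 CPM in wild type, and its counts were not whole in any library.

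The remaining Hnrnp genes had adjusted p-values between 0.326 and 0.926. Hnrnph2, the X-linked copy of Hnrnph1, averaged 18.9 ± 0.482 CPM in knockout and 16.7 ± 1.78 CPM in wild type, and Hnrnpf of the same G-tract-binding family 38.6 ± 2.16 CPM in knockout and 37.8 ± 6.14 CPM in wild type (SD, n = 4 each). Hnrnpul2 averaged 73.0 ± 2.14 CPM in knockout and 73.9 ± 3.77 CPM in wild type. Hnrnpa1, a repressor of exon inclusion and among the best-studied hnRNP proteins, averaged 10.4 ± 2.54 CPM in knockout and 11.4 ± 2.25 CPM in wild type. It held 209 to 414 counts per library, none of them whole in number, and it spread widely, with coefficients of variation of 24.4% in knockout and 19.7% in wild type. Counts were also not whole in all 8 libraries for Hnrnpf, Hnrnph2 and Hnrnph3, and in 7 for Hnrnpab and Hnrnpk. Fractions arise where reads are shared between genes or copies, so the levels of these genes are uncertain.

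Summed over the 31 genes, levels were 1200, 1171, 1212 and 1244 CPM in knockout replicates 1 to 4 and 1196, 1074, 1074 and 1062 CPM in wild-type replicates 1 to 4. Wild-type replicate 1 thus lay with the knockouts, and the other 3 wild-type libraries lay below them. The 11 Srsf genes summed to 356 ± 15.8 CPM in knockout and 324 ± 30.0 CPM in wild type, and the 20 Hnrnp genes to 851 ± 14.7 CPM in knockout and 778 ± 35.9 CPM in wild type (SD, n = 4 each). Wild-type replicate 4 held the lowest value of all 8 libraries for 10 genes, and wild-type replicates 2 and 3 for 7 each. Knockout replicate 4 held the highest value for 11 genes and wild-type replicate 1 for 5. Wild-type replicate 1 also had acinar and endocrine marker shares within the ranges of the knockouts. The acinar share of wild-type replicate 3, at 14.4%, lay within the knockout range too, and its endocrine share, at 18.8%, lay above every knockout. The summed level of that library was 1074 CPM. The part of the endocrine share in these levels was not tested. With the acinar share as a covariate 23 of the 31 estimates were above 0 with a median of 0.12, and with high or low Xist as a covariate 25 were, with a median of 0.15.

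**Figure D3:**
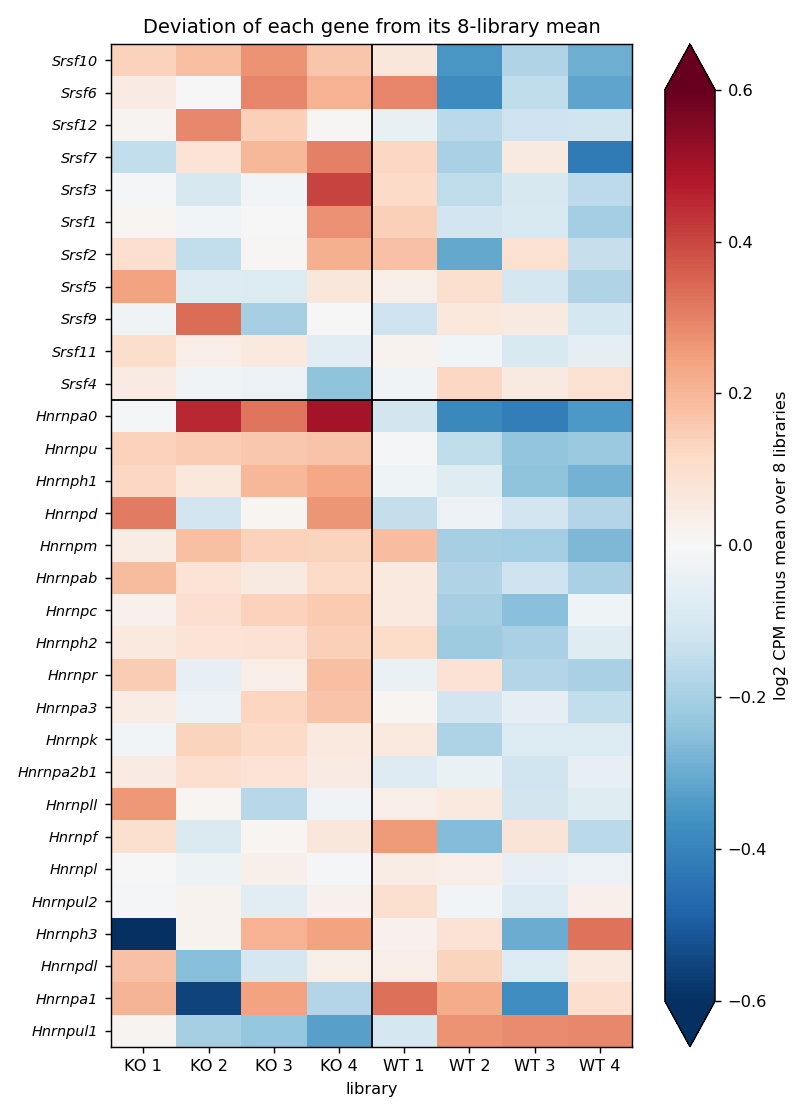
Log2 CPM of each gene less its mean over the 8 libraries, knockout left and wild type right of the line, Srsf genes above and Hnrnp genes below, each family ordered by log2 fold change. Wild-type replicates 2 to 4 are mostly below the mean (lowest of all libraries for 7, 7 and 10 genes), while wild-type replicate 1 is above the mean for 21 of the 31.

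Without wild-type replicate 1, 7 of the 31 genes passed FDR 0.05 in edgeR, beside 9.46% of all genes. Hnrnpa0, Hnrnpu, Srsf10, Hnrnph1, Hnrnpm and Srsf6 were higher in the knockout, beside 3.39% of all genes, and Hnrnpul1 was lower, beside 6.08%. Their log2 fold changes without that library were 0.70 for Hnrnpa0, 0.34 for Hnrnpu, 0.45 for Srsf10, 0.34 for Hnrnph1, 0.34 for Hnrnpm, 0.41 for Srsf6 and -0.48 for Hnrnpul1. With any other 1 library left out, 0 of the 31 passed, and 2 to 5 genes over the whole table did. Wild-type replicate 1 is the library whose summed level lay with the knockouts, and it was singled out after the values were seen. With all 8 libraries DESeq2's Wald test called 4 of the 31, all higher, beside 3.8% of all genes and 1.48% for those higher. These 4 were Hnrnpa0, Hnrnpu, Srsf10 and Hnrnph1. With wild-type replicate 1 left out and the acinar share as a covariate, edgeR called 1 of the 31, Hnrnpa0 (adjusted p = 0.0387), beside 267 of 13874 genes. Over 24 alternatives the adjusted p of Hnrnpa0 ran from 0.00162 to 0.982.

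**Figure D4:**
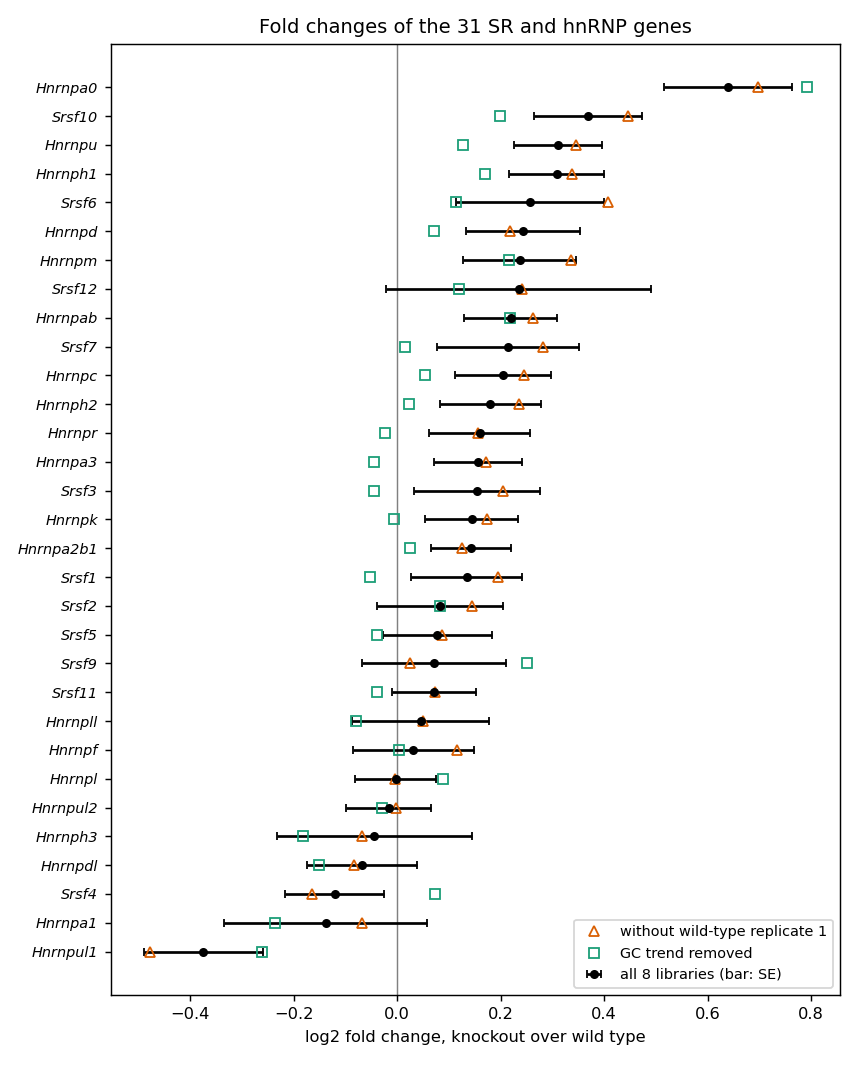
Log2 fold change of each of the 31 genes, knockout over wild type, from all 8 libraries (filled points, bars are SE), without wild-type replicate 1 (triangles) and with the GC trend removed (squares). The estimates from all 8 libraries run from -0.37 for Hnrnpul1 to 0.64 for Hnrnpa0, and 24 of 31 are above 0, against 18 with the GC trend removed and 14 in limma on log2 of the deposited RPM plus 1 (not drawn).

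Fold changes moved with the base composition of the transcript across the whole data set. Splicing factor transcripts were poor in G and C: their median GC content was 44.6% against 50.2% over all genes, and 26 of the 31 lay below the median of all genes. Over 13119 genes the Spearman correlation of GC content with log2 fold change was -0.47, and over the 31 genes it was -0.45. Both are descriptions across genes of the same 8 libraries. Splitting at 45% GC, a limit chosen after the values were seen, 17 of 18 splicing factor genes under it had estimates above 0 with a median of 0.17, against 81.4% of all 2973 genes under it, whose median was 0.18. At 45% and over, 7 of 13 were above 0 with a median of 0.03, against 42.4% of all 10146 genes there, whose median was -0.06.

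Set against genes in the same GC bin of 2 percentage points, 23 of the 31 estimates lay inside the middle 50% of the bin, 4 above it and 4 below it. Those above were Hnrnpa0, Srsf10, Hnrnph1 and Srsf9, and those below were Hnrnpul1, Hnrnpa1, Hnrnpdl and Hnrnph3. Hnrnpa0 stood out most: at 55.4% GC its estimate was 0.64, where the bin of 1321 genes had a median of -0.16 and an upper quartile of 0.06. Removing a GC trend in each library left 18 of the 31 estimates above 0 with a median of 0.02. Under that correction Hnrnpa0 was at 0.79 and Hnrnpul1 at -0.26, Srsf10 at 0.20, Hnrnph1 at 0.17 and Hnrnpu at 0.13. All genes under 45% GC had median deviations of 0.01, 0.09, 0.11 and 0.12 (log2) in knockout replicates 1 to 4. In wild-type replicates 1 to 4 these were 0.05, -0.13, -0.11 and -0.15. For the 31 genes the medians were 0.05, 0.02, 0.06 and 0.14 in knockout and 0.04, -0.11, -0.11 and -0.14 in wild type. Both sets were low in wild-type replicates 2 to 4, while knockout replicates 1 and 2 differed between the sets. Whether the GC trend arose in the islets or in library preparation was not tested.

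**Figure D5:**
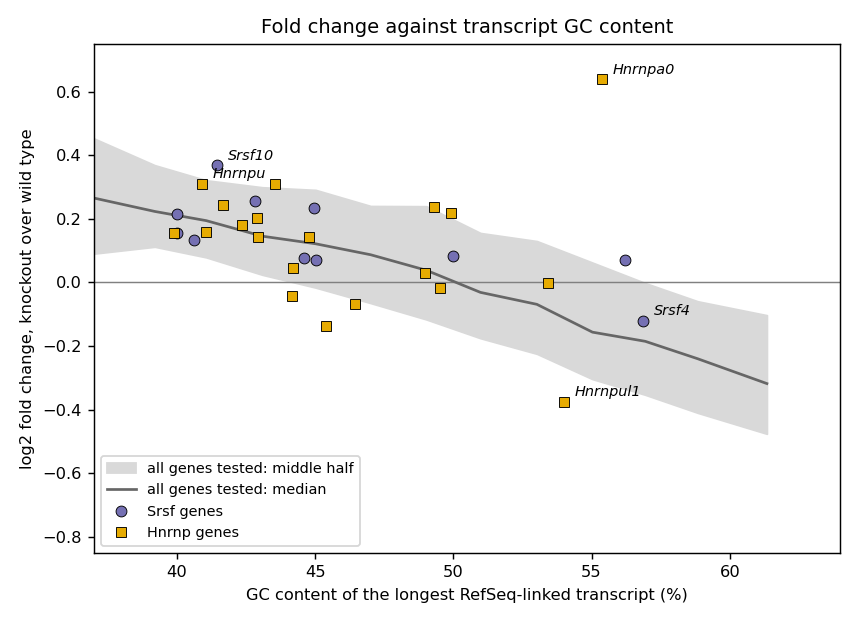
Log2 fold change, knockout over wild type, against the GC content of each gene's longest RefSeq-linked transcript for the Srsf genes (circles) and Hnrnp genes (squares), with the median (line) and middle 50% (band) of all genes in bins of GC content. The band falls as GC content rises, and Hnrnpa0 at 0.64 lies far above it. Counted within their own bin, 23 of the 31 genes lie inside the middle 50%. The band is drawn by joining the bins, so a gene near its edge can fall on the other side.

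The other genes of the splicing machinery were described from 4 lists, and none of their genes passed FDR 0.05 with all 8 libraries. Without wild-type replicate 1, 20 of the 75, 33, 61 and 15 genes tested in the lists passed it, beside 9.46% of all genes. Of these, 10 were higher and 10 lower, beside 3.39% and 6.08% of all genes. The 8 genes named here were picked for the smallest p in these data, and 7 of them (all but Upf2) were among the 20. Of 75 core spliceosome genes 38 had estimates above 0 and 37 below, with a median of 0.0096, and at an unadjusted p under 0.05 there were 13 higher and 4 lower, beside 8.42% and 10.3% of all genes. Snrpb2, a protein of the U2 particle, was at 10.7 ± 1.02 CPM in knockout and 7.48 ± 0.857 CPM in wild type (log2 fold change 0.52 ± 0.12, SE, edgeR adjusted p = 0.124). Dhx38, the helicase PRP16 of the second catalytic step, was at 5.80 ± 0.586 CPM in knockout and 7.92 ± 0.801 CPM in wild type (-0.45 ± 0.13, adjusted p = 0.149). Of 33 SR kinases and SR-related genes 20 were above 0 and 13 below, with a median of 0.06, and 5 were higher and 2 lower at that unadjusted p. Tra2b, an SR-related activator of exons, was at 30.3 ± 3.62 CPM in knockout and 22.5 ± 4.27 CPM in wild type (0.43 ± 0.14, adjusted p = 0.172). Scaf1, a protein with an SR domain that binds RNA polymerase II, was at 20.6 ± 3.43 CPM in knockout and 30.2 ± 4.71 CPM in wild type (-0.55 ± 0.14, adjusted p = 0.144).

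Of 61 other splicing regulators, among them Hnrnpll and Hnrnpdl, 38 were above 0 and 23 below, with a median of 0.07, and 6 were higher and 6 lower at an unadjusted p under 0.05. The 2 of smallest p were both lower in the estimate: Celf3, a neural and endocrine splicing regulator, at 52.1 ± 1.80 CPM in knockout and 77.7 ± 15.1 CPM in wild type (-0.58 ± 0.13, adjusted p = 0.123), and Khdrbs3, of the Sam68 family, at 17.8 ± 0.794 CPM in knockout and 22.7 ± 1.49 CPM in wild type (-0.35 ± 0.09, adjusted p = 0.142). Of 15 genes of nonsense-mediated decay and the exon junction complex, which read the outcome of splicing, 11 were above 0 and 4 below, with a median of 0.15, and 2 were higher and 1 lower at that level. Magoh, a core protein of that complex, was at 5.48 ± 1.10 CPM in knockout and 3.61 ± 0.775 CPM in wild type (0.61 ± 0.19, adjusted p = 0.171). Upf2, a decay factor, was at 38.2 ± 2.78 CPM in knockout and 31.9 ± 3.22 CPM in wild type (0.26 ± 0.10, adjusted p = 0.212). All adjusted p-values in these lists are from edgeR over all 13617 genes (SD, n = 4 each, for the levels). With the GC trend removed the medians of the 4 lists were -0.0039, -0.0096, -0.0046 and 0.12 in the order given.

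Splicing factor genes were spread over 16 chromosomes, with 4 each on chromosomes 4, 11 and 17. Hnrnpul1 and Hnrnpl lie on chromosome 7 with the targeted host gene Rpl13a, and 211 and 156 tested genes separate them from it among 1001 on that chromosome.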

How the data were processed

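RNA of hand-picked islets from 4 knockout and 4 wild-type mice was prepared with TRIZOL, treated with DNase and made into SeqPlex libraries, per the labels' protocols. STAR 2.4.1, Partek and mm9 stand in the submitters' processing notes, with no roles. Not given in the sources used here are the gene annotation, any poly(A) selection and the strand, so overlapping and antisense genes cannot be told apart. The authors deposited estimated counts per gene, of which 9.98 to 12.4% per library were not whole within 0.01, and RPM values, each of which, less an offset of 0.0001, is the estimated count over a constant of the library (equal to 37.3 to 67.5 M reads). Both tables hold the same 24469 genes, and columns were matched to samples by title.

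Counts were rounded and tested with edgeR 4.0.16 in R 4.3.3: filterByExpr by genotype, TMM, a robust quasi-likelihood F-test on all 8 libraries with no covariate, and Benjamini-Hochberg adjustment over 13617 genes, called at 0.05. Common biological variation came to a coefficient of 0.239. The script was tested on simulated data. CPM values use TMM-scaled library sizes, and the deposited RPM served only in limma 3.58.1. DESeq2 1.42.0 and other normalizations, filters and covariates, each library left out in turn and a replicate block were alternatives. The fit without wild-type replicate 1 with the acinar share, and the fit with Xist above or below 1000 counts, were chosen after seeing the data. No 2 libraries were copies: the smallest chi-square per degree of freedom between any pair was 26.1. Libraries were amplified and hold no molecular identifiers, so a read is not an independent molecule.

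GC content and the median length of RefSeq-linked mRNAs came from the GRCm38 annotation and could be matched through the symbol for 95.4% of genes and all 31 splicing factors. Promoters came from a RefSeq table on GRCm38.p6. Since the counts rest on mm9, no coordinate of the counts is printed. Values in every library are given for the 10 genes of smallest p, the 4 highest and 4 lowest per length and those whose groups did not overlap. In each other splicing list the 2 genes of smallest p are named, with group means. The splicing factors and the lists were chosen with earlier results of these data known.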

Additional observations from a re-analysis of the deposited data

Results flagged for a closer look

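A library was marked where it lay so far from the other 3 of its genotype that the gap passed Dixon's critical value for 4 values, which chance does for about 1 in 20 groups. Among 62 groups (31 genes in 2 genotypes) 4 were marked, where that rate gives 3.1, so the marks on single genes are near the number chance gives. Wild-type replicate 1 was marked for Hnrnpm, at 36.1 CPM where the other 3 wild-type libraries were at 26.4 to 27.7 CPM, and for Hnrnpul1, at 42.3 CPM where the others were at 54.9 to 55.6 CPM. Of 6 groups of summed levels (all 31 genes, the Srsf and the Hnrnp genes, in 2 genotypes) 1 was marked. That was the sum of the 31 splicing factor genes in wild-type replicate 1, at 1196 CPM where the others summed to 1062 to 1074 CPM. Knockout replicate 4 was marked for Srsf3, at 46.0 CPM where the other knockouts were at 32.5 to 34.5 CPM, and for Srsf1, at 32.3 CPM where they were at 26.4 to 26.9 CPM.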

How the results depend on the processing

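Over 24 alternatives, 673 of 743 recomputed fold changes of the 31 genes kept their direction and their side of the threshold, 12 passed the threshold only under the alternative, and 58 changed sign. No sign changed for 13 of the 31 genes, among them Hnrnpa0, Hnrnpu, Srsf10, Hnrnph1 and Hnrnpul1. The 2 genes called over the whole table became 48 with no composition factor, 517 in DESeq2, 51 and 58 in limma-trend on RPM plus 1 and plus 0.1, and 267 without wild-type replicate 1 plus the acinar share as covariate. With 1 library left out, 1313 genes were called without wild-type replicate 1, and 2 to 5 without any other (5 without knockout replicate 4). The 0 splicing factors called became 4 in DESeq2 and 1 without wild-type replicate 1 with the acinar share. With 1 library left out, 7 were called without wild-type replicate 1 and 0 without any other. At FDR 0.10 3 genes passed and 0 splicing factors. The median of the 31 genes was 0.038 with no composition factor, -0.00072 and -0.0023 in limma-trend on RPM plus 1 and plus 0.1, and 0.022 with the GC trend removed. With 1 library left out it ran from 0.11 to 0.17.

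The sign changed in at least 1 alternative for 18 of the 31 genes, and the cause was not tested. Their estimates in the main fit ran from -0.14 for Hnrnpa1 to 0.16 for Hnrnpr, some of them above the median of 0.14. With the GC trend removed the genes that changed sign were Hnrnpa3 (-0.046), Hnrnpk (-0.0063), Hnrnpl (0.088), Hnrnpll (-0.079), Hnrnpr (-0.023), Srsf1 (-0.052), Srsf11 (-0.038), Srsf3 (-0.045), Srsf4 (0.073) and Srsf5 (-0.039). In limma-trend on RPM plus 1 and plus 0.1 they were Hnrnpa2b1 (-0.0029 and -0.0033), Hnrnpf (-0.097 and -0.10), Hnrnpk (-0.00072 and -0.0011), Hnrnpll (-0.073 and -0.099), Srsf1 (-0.0093 and -0.012), Srsf11 (-0.074 and -0.076), Srsf2 (-0.056 and -0.058), Srsf3 (-0.00025 and -0.0023), Srsf5 (-0.065 and -0.069) and Srsf9 (-0.060 and -0.085). With no composition factor they were Hnrnpf (-0.058), Hnrnpll (-0.075), Srsf11 (-0.056), Srsf2 (-0.011), Srsf5 (-0.054) and Srsf9 (-0.017). Under the acinar covariate they were Hnrnpf (-0.070), Hnrnph3 (0.014) and Srsf2 (-0.029), and with wild-type replicate 1 also left out Hnrnpf (-0.024), Hnrnph3 (0.066), Hnrnpl (0.011), Hnrnpul2 (0.039) and Srsf2 (-0.037). Hnrnpl was at 0.0019 with a filter of 50 counts in 4 libraries and at 0.0026 with Xist as a covariate. With 1 library left out, estimates crossed 0 for Hnrnpa1 (-0.28 to 0.0015), Hnrnpdl (-0.15 to 0.00051), Hnrnpf (-0.045 to 0.12), Hnrnph3 (-0.16 to 0.094), Hnrnpl (-0.034 to 0.010), Hnrnpll (-0.047 to 0.092), Srsf5 (-0.0055 to 0.12) and Srsf9 (-0.045 to 0.13).

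Whether the replicate numbers pair the libraries cannot be told, since 4 correlations are too few to decide it. Deviations of same-numbered libraries correlated at 0.038, 0.21, 0.16 and 0.15, and 2 of 4 correlated best with their own number. With the replicate block 2 genes and 0 splicing factors were called, with a median of 0.14 for the 31 genes. Depth limits Srsf12, at 11 to 24 counts.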
